A study of Mus musculus with 6 samples.

Results

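Schwann cells are the glia of peripheral nerve, and in the cochlea they wrap the axons of the spiral ganglion neurons that carry sound information to the brainstem. Their precursors arise from the neural crest under the transcription factor Sox10 and survive on axonal neuregulin read through the receptor Erbb3. When they begin to myelinate they induce the transcription factor Egr2, which together with Sox10 turns on the genes of myelin proteins and lipids. The 8 genes described here cover that sequence: Sox10, Erbb3, Fabp7, Egr2, Pmp22, Mbp, Cnp and Mag. They were chosen by name, and every probe set annotated to 1 of them and to no other gene was taken, which gave 21 probe sets of the 22626 on the array that are not controls, and 8 of 12393 genes.

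Each sample was total RNA pooled from 4 cochleae of mouse embryos at embryonic day 18.5, dissected with the otic capsule, the bony and cartilaginous shell of the cochlea, and without vestibular tissue. There were 3 pools of Igf1 null embryos, which lack both working copies of the insulin-like growth factor 1 gene in every cell, and 3 pools of wild type embryos, all from matings of heterozygous parents on a C57BL/6J background, so that a value belongs to a pool and not to an animal. Each pool was hybridised to 1 Affymetrix array, so 6 arrays carry the comparison and limit the precision of every value. Levels below are log2 signals after quantile normalization, and differences are null minus wild type on that scale.

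The deposited array medians ran from 5.61 to 6.36 in the null pools and from 6.09 to 6.30 in the wild type pools. All 3 Igf1 probe sets had their null readings below the wild type ones, and at the probe set that differed most it stood at 0.502 of the wild type level (adjusted p = 0.600 in limma). Whether these probe sets lie in the disrupted part of Igf1 is not known here, and the source names of the null samples give their genotype as +/+, against the titles and descriptions used here. That field also gives the age of 1 wild type pool as E18.6, where its other fields give E18.5. The beta-actin 3' minus 5' signal, a sign of RNA quality, ran from 0.857 to 1.08 in the null arrays and from 0.710 to 0.796 in the wild type arrays, with no overlap. The same measure of Gapdh overlapped, at 0.181 to 0.523 in the null arrays and 0.191 to 0.315 in the wild type arrays. The part of RNA quality in the results below was not tested. The mean of 12 spiral ganglion neuron markers was highest in replicate 2 of each genotype and stood apart in wild type replicate 2. It was 7.62, 8.11 and 7.13 in null replicates 1 to 3 and 7.0, 8.64 and 7.02 in wild type replicates 1 to 3. No file gives detection calls, so background was read from 18 genes of testis, oocyte, retina, milk, exocrine pancreas, kidney and liver, whose readings had a median of 1.12 and reached 5.78 for Uox, with no other gene of the list above 4.64. A probe set's brightness depends on its own probes, so this bound is a rough one.

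By that bound, 6 of the 8 genes were measured above background on all arrays at 1 or more probe sets: Sox10, Erbb3, Fabp7, Pmp22, Mbp and Cnp. Egr2 and Mag were not above it on any array. None of the 21 probe sets passed the test between the genotypes in limma with adjustment over all probe sets (0 of 21, smallest adjusted p = 0.980, background 0% of 22626), 0 passed an unadjusted p of 0.05 (background 4.99%), and in 0 of 21 did the null and wild type arrays separate (background 10.8%, made of 5.30% with null lower and 5.53% with null higher). At the brightest probe set of each gene 5 were lower and 3 higher in the null pools, with a median difference of -0.0765, against 0.0062 over all genes. The exact permutation test, two-sided, gave no p below 0.2 for any of the 21, where 3 against 3 arrays allow 0.1 at best.

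**Figure D1:**
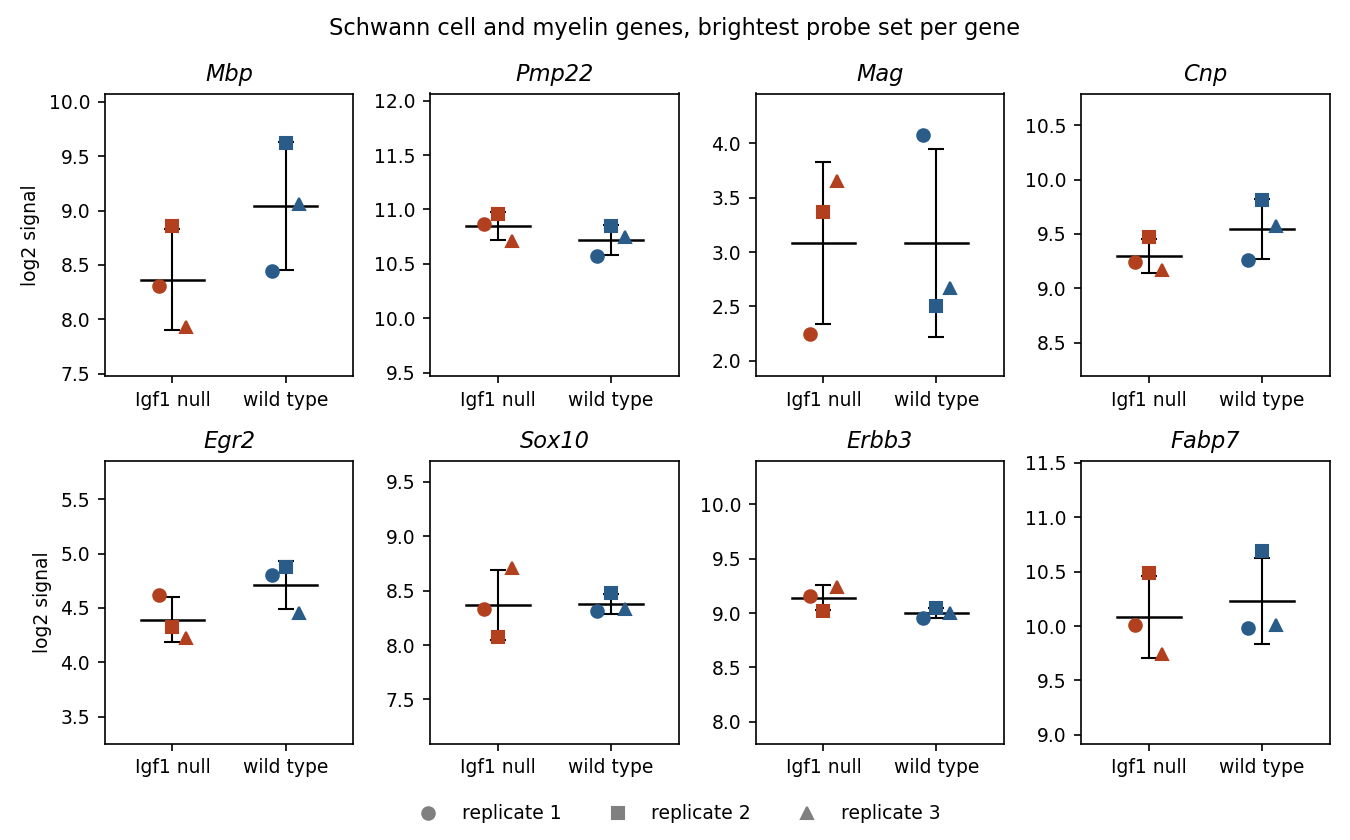
Log2 signal of each gene at its brightest probe set (y axis, each panel spanning the same number of log2 units) in the 3 Igf1 null and the 3 wild type pools (x axis). Symbols mark the replicate number, horizontal lines the mean and vertical bars the SD (n = 3). The genotypes overlap in all 8 panels, with the widest spread for Mag and Mbp and the narrowest for Erbb3 and Pmp22.

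Sox10, the transcription factor that Schwann cells keep from the neural crest onward and that melanocytes and the otic epithelium also use, differed between the genotypes by less than the spread of its readings. At its brightest probe set (1451689_a_at) Sox10 read 8.33, 8.07 and 8.71 in null replicates 1 to 3, against 8.31, 8.48 and 8.33 in wild type replicates 1 to 3. The null readings lay on both sides of the wild type ones, and the difference was -0.0045 ± 0.19 (SE), with a 95% interval from -0.49 to 0.48. The other probe sets of Sox10 differed by -0.14 (1424985_a_at) and 0.32 (1425369_a_at). The last of these was not above background on any array. Spread within the genotypes was wider among the null pools, with a range of 0.64 at the brightest probe set against 0.17 among the wild type pools.

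Erbb3, the neuregulin receptor that needs the partner Erbb2 for its signal, had the tightest readings of the 8 genes at its brightest probe set. Probe set 1434606_at of Erbb3 read 9.16, 9.02 and 9.24 in the null pools and 8.96, 9.05 and 9.01 in the wild type pools. Null replicate 2 was within the wild type range and the other null pools were above it. The difference of 0.14 ± 0.11 (SE, limma adjusted p = 0.981) has a 95% interval from -0.14 to 0.42, so a change of the size of a doubling lies outside it in either direction. Its other probe set (1452482_at) gave readings from -1.11 to 2.72, all at background level. Its partner Erbb2 differed by 0.33 ± 0.28 (SE).

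Fabp7, the brain-type fatty acid binding protein, marks Schwann cell precursors and radial glia in the embryo, and cochlear supporting cells also contain it. Its 1 probe set (1450779_at) read 10.01, 10.49 and 9.75 in the null pools, against 9.99, 10.69 and 10.01 in the wild type pools. Fabp7 was highest in replicate 2 of each genotype, and the genotypes overlapped. The difference was -0.15 ± 0.29 (SE), with a 95% interval from -0.88 to 0.58. Of 10 supporting cell markers 7 were higher and 3 lower in the null pools, with the brightest, Tecta, at 0.27 and the dimmest, Prox1, not above background on any array, at 0.47. None of the 10 passed the test.

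Egr2, the zinc finger factor that starts myelination in Schwann cells and is also a serum-induced gene of many cell types, was dim. At probe set 1427683_at Egr2 read 4.62, 4.33 and 4.23 in the null pools, against 4.80, 4.88 and 4.46 in the wild type pools. Null replicate 1 alone was above the lowest wild type pool. The difference was -0.32 ± 0.18 (SE, limma adjusted p = 0.980), and none of these readings was above background. At the other probe set of Egr2 (1427682_a_at) the means were 2.96 ± 0.42 in null and 2.95 ± 1.39 in wild type pools (SD, n = 3), and the wild type readings spread over 2.65 log2 units.

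Promoter windows are shown for Egr2, Mag and Cnp, the 3 genes for which a window used here held a match to a motif. The windows, from RefSeq on assembly GRCm38.p6, cover 250 bases before to 50 after a transcript start and were used for 5 of the 8 genes. Of 14 windows of these genes, those shown hold a match, and where a gene has several, the window with most matches is shown. They were searched on both strands for the SOX core (ACAAAG), an EGR site (GCGTGGGCG) and the POU octamer (ATGCAAAT), and no matches overlap in the windows shown. Capitals mark the matches. The Egr2 window lies at chr10:67537619-67537918 on the plus strand, that of Mag at chr7:30914814-30915113 on the minus strand and that of Cnp at chr11:100574689-100574988 on the plus strand.
Egr2: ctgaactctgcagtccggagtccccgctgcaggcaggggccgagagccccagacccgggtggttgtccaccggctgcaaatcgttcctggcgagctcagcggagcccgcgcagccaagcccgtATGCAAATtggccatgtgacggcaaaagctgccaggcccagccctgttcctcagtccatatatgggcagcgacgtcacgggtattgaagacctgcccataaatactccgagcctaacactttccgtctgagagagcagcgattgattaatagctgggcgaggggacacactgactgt
Mag: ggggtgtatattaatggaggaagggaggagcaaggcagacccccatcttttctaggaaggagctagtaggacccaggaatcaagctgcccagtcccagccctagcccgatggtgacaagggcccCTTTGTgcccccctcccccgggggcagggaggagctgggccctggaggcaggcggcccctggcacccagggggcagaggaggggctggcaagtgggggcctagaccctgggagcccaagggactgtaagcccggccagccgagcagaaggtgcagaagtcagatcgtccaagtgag
Cnp: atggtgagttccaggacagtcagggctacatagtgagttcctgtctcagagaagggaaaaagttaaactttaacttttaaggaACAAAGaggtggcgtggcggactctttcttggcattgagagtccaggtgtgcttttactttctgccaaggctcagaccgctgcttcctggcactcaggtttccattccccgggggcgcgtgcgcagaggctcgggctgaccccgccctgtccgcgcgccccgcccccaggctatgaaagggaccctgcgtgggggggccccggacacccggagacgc
The Egr2 window holds 1 POU octamer, found in 1.74% of all 32851 windows. Those of Mag and Cnp hold 1 SOX core each, found in 18.7% of windows. No window of these 5 genes held the EGR site, found in 0.612% of windows, and the windows of Pmp22 and Fabp7 held none of the 3 motifs. These are matches of letters, not sites shown to be bound.

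Pmp22, a membrane protein of compact myelin that fibroblasts and epithelia also express, was bright and even across pools. Its probe set (1417133_at) read 10.86, 10.96 and 10.71 in the null pools and 10.57, 10.85 and 10.75 in the wild type pools, with 1 null pool below the highest wild type reading but above the lowest. Pmp22 differed by 0.12 ± 0.13 (SE), with a 95% interval from -0.21 to 0.46.

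Mbp, the basic protein that holds the cytoplasmic faces of the myelin membrane together, had the largest difference among the 6 genes measured above background, each at its brightest probe set, and did not pass the test. At its brightest probe set (1433532_a_at) Mbp read 8.31, 8.85 and 7.93 in the null pools, against 8.44, 9.62 and 9.06 in the wild type pools. The means were 8.36 ± 0.46 in null and 9.04 ± 0.59 in wild type pools (SD, n = 3), a difference of -0.68 ± 0.39 (SE), or 0.626 of the wild type level. Null replicate 2 was above wild type replicate 1, so the groups overlapped, and the 95% interval ran from -1.65 to 0.30 (limma adjusted p = 0.980, exact permutation p = 0.2). Between same-numbered pools, the null one was lower in 3 of 3 pairs. Such an order was found at 6 of the 21 probe sets, 3 of Mbp, 2 of Cnp and 1 of Egr2 (background 14.5%). The opposite order was found at 0 of 21 (background 14.8%). Probe sets of 1 gene read the same RNA, and the pairing was itself inferred from these data. No conclusion is drawn from these counts. With the replicate number as a block the brightest Mbp probe set had an adjusted p of 0.842 in limma. In bulk tissue, fewer glial cells and less Mbp RNA per cell cannot be told apart.

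The 8 Mbp probe sets fell into 2 kinds of reading. In 6 of them the null mean was lower, by -0.47 to -0.68, or 0.723 to 0.626 of the wild type level, with unadjusted p from 0.118 to 0.289 in limma. All 6 were highest in wild type replicate 2 and lowest in null replicate 3. These 6 probe sets read the same gene in the same RNA and are not independent of each other. The remaining probe sets, 1425264_s_at and 1425263_a_at, differed by 0.09 and 0.06. At 1425263_a_at Mbp read 5.58, 5.94 and 5.70 in the null pools and 5.66, 5.67 and 5.70 in the wild type pools, and 1 reading, that of null replicate 2, was above background. The Mbp locus makes several transcripts, including the longer golli forms found outside myelinating glia, and the files do not say which of them each probe set reads.

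Cnp, an enzyme of the cytoplasmic channels in myelin that is made from an early stage of the glial lineage, had a lower null mean at all 3 of its probe sets, by -0.25, -0.26 and -0.27, and passed the test at none. At the brightest (1437341_x_at) Cnp read 9.24, 9.47 and 9.17 in the null pools, against 9.26, 9.81 and 9.57 in the wild type pools. Null replicate 2 was above wild type replicate 1, so that the groups overlapped. The difference of -0.25 ± 0.19 (SE) has a 95% interval from -0.72 to 0.22. Mbp at its 6 lower probe sets and Cnp at all 3 stayed negative under every alternative that gave a value, the scalings included. They passed the test under none. The 6 Mbp probe sets were grouped by that sign, so it is no separate support. Of the 17 alternatives, 5 cannot change a difference. The sizes moved with single arrays. Without wild type replicate 2 the 3 Cnp probe sets differed by -0.12, -0.049 and -0.15 and the 6 Mbp probe sets by -0.16 to -0.41. The brightest Mbp probe set differed by -0.98 without wild type replicate 1, -0.92 without null replicate 2 and -0.46 without null replicate 3. Leaving out wild type replicate 1 gave 3 of the 21 probe sets an unadjusted p under 0.05 in limma (smallest adjusted p = 0.892). All 3 are of Mbp and read the same RNA. Of all 22626 probe sets, 1223 reached that p in the same setting.

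Mag, the adhesion protein at the inner, axon-facing wrap of myelin that appears once wrapping has begun, was not measured above background. Its readings at 1460219_at were 2.24, 3.37 and 3.65 in the null pools, against 4.07, 2.51 and 2.67 in the wild type pools. Wild type replicate 1 was the highest and null replicate 1 the lowest. The means were 3.09 ± 0.74 in null and 3.08 ± 0.86 in wild type pools (SD, n = 3), with a 95% interval of the difference from -1.45 to 1.46.

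**Figure D2:**
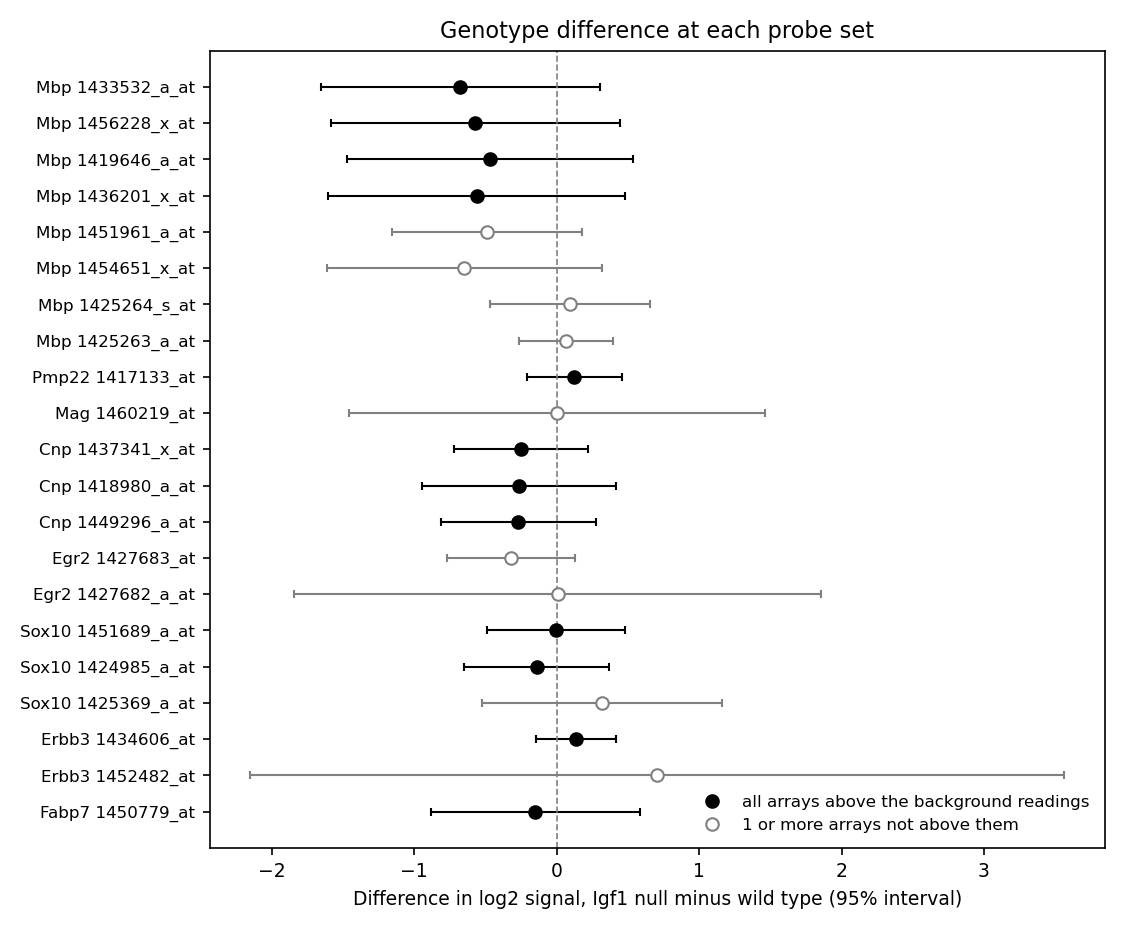
Difference in log2 signal, Igf1 null minus wild type (x axis), with its 95% interval from limma at each of the 21 probe sets (y axis). Filled points have all 6 arrays above the background readings, and open points have 1 or more arrays not above them. Every interval includes 0, and the widest are those of Erbb3 at 1452482_at, Egr2 at 1427682_a_at and Mag, all open points.

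Mbp, Fabp7, Sox10 and Cnp varied between pools of 1 genotype more than most of the 11313 probe sets above the median level. The within-genotype SD at the brightest probe set was 0.53 for Mbp, larger than for 97.3% of those probe sets, 0.39 for Fabp7 (94.5%), 0.24 for Sox10 (78.7%) and 0.23 for Cnp (76.3%), against 0.13 for Pmp22 (36.6%) and 0.0861 for Erbb3 (12.2%). The median over those probe sets was 0.16. Fabp7, the 6 lower Mbp probe sets and Cnp were, like the neuron markers, highest in replicate 2 of each genotype when probe sets were averaged. Relative to its mean over the 6 arrays, Fabp7 stood at 0.33 in null replicate 2 and 0.54 in wild type replicate 2, and the neuron markers at 0.52 in null replicate 2 and 1.05 in wild type replicate 2. In wild type replicate 3 Mbp stood at 0.34 while the neuron markers stood at -0.56. Sox10 was lowest in null replicate 2, at -0.30, and Erbb3 was lowest in wild type replicate 1, at -0.12. Without wild type replicate 2 the difference at the brightest Mbp probe set was -0.39 (adjusted p = 0.966 in limma). Without replicate 2 of both genotypes, a choice made after the data were seen, it was -0.63 (adjusted p = 1.00). The part of neuronal RNA in the Mbp difference was not tested.

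**Figure D3:**
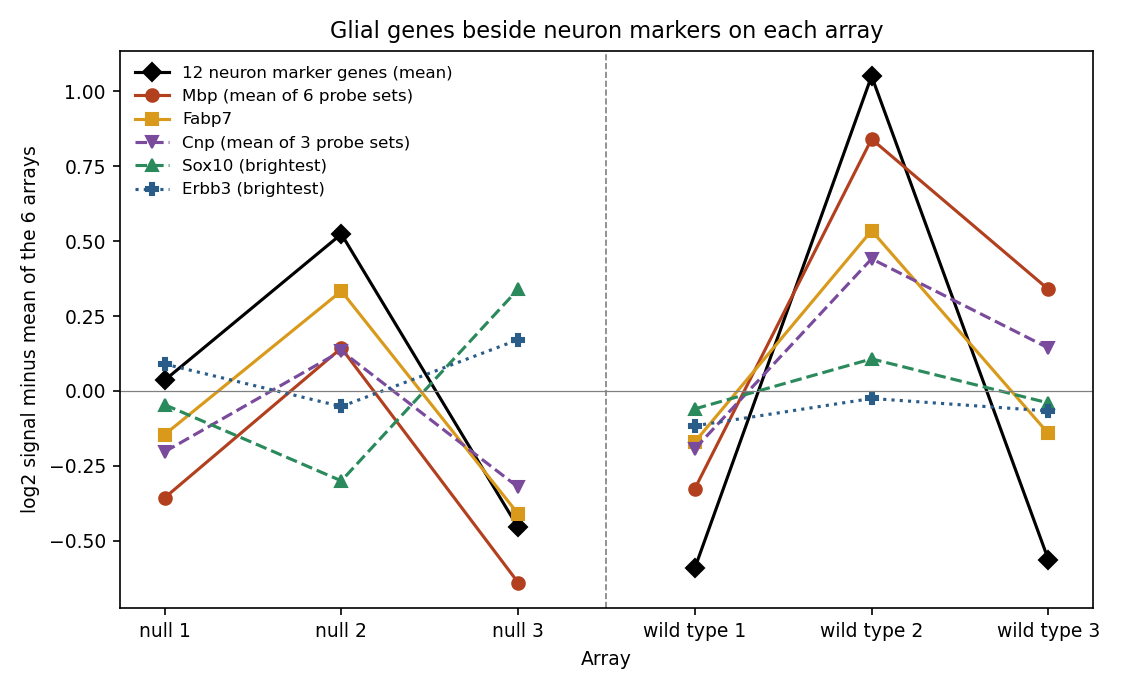
Log2 signal minus the mean of the 6 arrays (y axis) on each array (x axis) for glial genes and for the mean of 12 spiral ganglion neuron markers. Lines join the readings of a gene within a genotype and mark no order of the pools. Mbp is the mean of its 6 probe sets with a lower null mean. Mbp, Fabp7, Cnp and the neuron markers peak in replicate 2 of each genotype, while Sox10 is lowest in null replicate 2.

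In the sample titles both first replicates have a 14 and the other replicates a 16, whose meaning is not given. Within number 14, with 1 pool of each genotype, the 6 lower Mbp probe sets differed by -0.13 to 0.035. Within number 16 they differed by -0.95 to -0.71, and in all 6 both null pools were below both wild type pools. With 2 pools against 2, such a separation with null lower occurred in 16.7% of all probe sets and with null higher in 18.5%. Among the 21 probe sets it occurred with null lower in 10, of Mbp, Cnp and Egr2. With null higher it occurred in 2, of Mbp and Mag. The 6 Mbp probe sets were grouped by their sign over all arrays. Probe sets of 1 gene read the same RNA, so these counts are not of independent units. Without the number 14 arrays the brightest Mbp probe set differed by -0.94 (adjusted p = 0.955 in limma), and Mag, at background level, by 0.93 (adjusted p = 0.790).

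Markers of other cells that share these genes gave the following readings. None of 6 oligodendrocyte markers, the central myelinating glia, had a mean above background. Mobp, the dimmest, read from -2.25 to -1.04 in the null pools and from -3.28 to -0.54 in the wild type pools, and the myelin gene Mog read from -2.04 to 0.87 in the null pools and from -4.79 to 1.92 in the wild type pools. Olig1, the brightest, read 3.94, 6.54 and 4.71 in the null pools and 4.71, 5.83 and 5.41 in the wild type pools, so that 1 pool of each genotype, replicate 2, was above background. The log2 of the summed signal of the oligodendrocyte list ran from 5.06 to 7.02 in the null pools and from 5.72 to 6.39 in the wild type pools. None of 4 astrocyte and satellite glia markers had a mean above background either, with Slc1a2 the dimmest and Aqp4 the brightest, and their summed signal ran from 6.08 to 7.04 in the null pools and from 6.55 to 6.89 in the wild type pools. Melanocyte markers, which bear on Sox10 and Erbb3, had 4 of 8 means above background, with Dct the brightest and Oca2 the dimmest, and summed signals from 9.45 to 9.60 in the null and from 9.30 to 9.58 in the wild type pools. For the neuron list the summed signal ran from 11.90 to 12.88 in the null pools and from 11.82 to 13.58 in the wild type pools, with Nefl the brightest and Scn9a the dimmest. The supporting cell list, which bears on Fabp7 and Sox10, had 7 of 10 means above background and ran from 10.73 to 11.24 in the null and from 10.64 to 10.95 in the wild type pools. What part any of these cells had in the readings of the 8 genes was not tested.

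Beyond the 8 genes, 58 of 69 other genes of Schwann cells and myelination were measured, in 5 groups. None passed the adjusted threshold in limma (0 of 58, background 0% of 12393 genes), and 3 had an unadjusted p under 0.05, 1 higher and 2 lower in the null pools (background 4.46%). These 3 were Gjb1, Cldn19 and Pou3f1, none of them above the background readings on any array. In 7 of the 58 each null pool was below each wild type pool (background 4.98%) and in 4 above (5.62%). The median difference was -0.0958, and 37 genes were below 0 and 21 above.

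Among other myelin proteins 9 of 10 measured genes were lower in the null pools, with a median of -0.20, and none passed. Mal, a lipid raft protein of myelin and of kidney and gut epithelia, read 7.51, 7.56 and 6.94 in the null pools, against 7.57, 7.85 and 7.73 in the wild type pools, a difference of -0.38 ± 0.21 (SE) with no overlap. The tetraspanin Cd82 differed by -0.21 ± 0.10, also with no overlap. Gjb1, the connexin of Schwann cells, and Cldn19, a claudin of their tight junctions, differed by 2.74 ± 1.03 and -1.79 ± 0.68, but all their readings were at background level.

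Myelin lipid enzymes were split evenly, 4 higher and 4 lower. Their median of 0.0020 ran from -0.044 to 0.052 when single arrays were left out. Ugt8a, which makes the galactolipids of myelin, differed by 0.27 ± 0.11 (SE) and the ceramide synthase gene Cers2 by 0.15 ± 0.10, with each null pool above each wild type pool for both. The fatty acid hydroxylase gene Fa2h, not above background on any array, differed by -0.37 ± 0.17 and the desaturase gene Scd2 by -0.18 ± 0.15.

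Precursor and immature Schwann cell genes had a median of -0.0099, with 8 of 17 members higher. Leaving out wild type replicate 1 moved it to -0.23. Pou3f1, a POU factor of cells about to myelinate, read 2.67, 3.65 and 3.05 in the null pools, against 3.96, 3.79 and 4.89 in the wild type pools. Its groups did not overlap, the difference was -1.09 ± 0.40 (SE, adjusted p = 0.974), and no reading was above background. Jun, which opposes myelination, differed by -0.49 ± 0.22, with no overlap. Foxd3, a neural crest factor also not above background on any array, differed by -0.44 ± 0.40, and Sox2 by 0.24 ± 0.15. The neurotrophin receptor gene Ngfr, shared with neurons, read 8.11, 8.84 and 7.82 in the null pools and 7.51, 9.43 and 7.99 in the wild type pools, again highest in replicate 2 of each genotype, and S100b, a calcium-binding protein of Schwann cells, read 8.27, 8.64 and 8.87 in the null pools and 8.61, 8.85 and 8.62 in the wild type pools.

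Regulators of myelination had a median of -0.14, with 3 of 12 members higher, and the median was -0.041 without null replicate 1 and -0.023 without the number 14 arrays. The Egr2 co-regulators Nab1 and Nab2 differed by -0.15 ± 0.11 and -0.20 ± 0.14 (SE), with no overlap for Nab1. The related zinc finger factor Egr1 differed by -0.33 ± 0.26 and the histone deacetylase gene Hdac1 by 0.18 ± 0.11, with each null pool above each wild type pool. Neuregulin, laminin and adhesion genes had a median of -0.024, with 5 of 11 members higher. The laminin receptor subunit gene Itgb4, not above background, differed by -0.92 ± 0.41, Itgb1 by -0.14 ± 0.12 and the neuregulin-cleaving protease gene Adam17 by -0.14 ± 0.12.

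**Figure D4:**
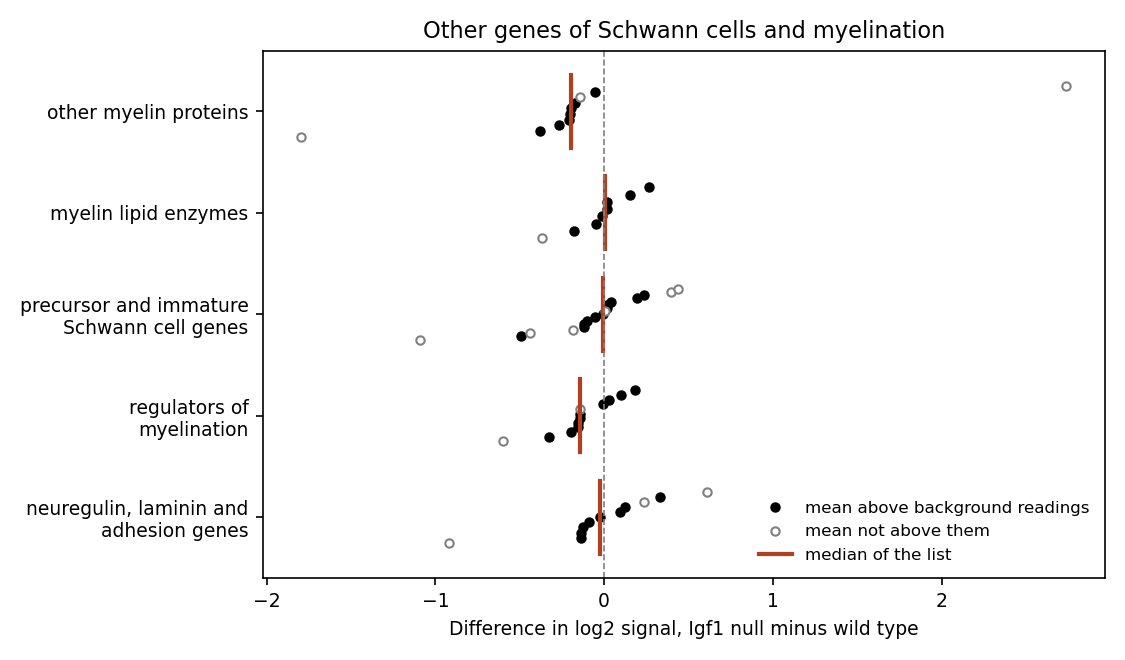
Difference in log2 signal, Igf1 null minus wild type (x axis), of each measured gene in 5 lists (rows), with filled points for genes whose mean level was above the background readings and open points for the others. Bars mark the list medians, which run from -0.20 for other myelin proteins to 0.0020 for lipid enzymes, and the widest differences are open points.

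The genes whose pattern over the 6 arrays lay closest to the mean pattern of the 8 were Fkbp5, Ap1ar, Rap2a, Sc5d and Mgat4b, at root mean square distances of 0.019 to 0.036 log2 units. They were found among 5919 genes above the median level whose SD over the arrays was within 2-fold of that pattern's. The mean pattern had an SD of 0.13, with its highest value, 0.22, in wild type replicate 2 and its lowest, -0.17, in null replicate 1. It leans on Mag, whose background-level reading stood at -0.84 from its own mean in null replicate 1. Without Mag, a choice made after the values were seen, the lowest pool was null replicate 3, at -0.19, and 0 of the 5 nearest genes were shared, so the likeness of these 5 genes rests on a gene at background.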

How the data were processed

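Total RNA from 6 pools of mouse cochleae was labelled with biotin and hybridised to 1 Affymetrix array per pool, per the labels' protocols. The deposited values are taken to be log2 signals from their range, with 22690 probe sets on each array. How the authors summarised probes and corrected background is not given here. Because the array medians differed, the arrays were quantile normalized after leaving out 64 control probe sets. Low signals vary widely on the log2 scale, and the number of arrays limits precision.

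Genotype and replicate number came from the sample titles. Probe sets were named from the platform annotation (20380 with 1 gene, 691 with several, 1555 unnamed), with symbols checked by Entrez identifier against RefSeq on GRCm38.p6. Null and wild type pools entered a limma fit (version 3.58.1, R 4.3.3, genotype only, two-sided), run on all probe sets with Benjamini-Hochberg adjustment and a threshold of 0.05. Genes in counts and lists were represented by their brightest probe set. The pools are called independent in the series' design text.

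Deviations from the genotype means were correlated between pools over 11313 probe sets above the median level. Same-numbered pools gave r = 0.19, 0.38 and 0.14 for replicates 1 to 3, and the numbers were taken to pair the pools. Null replicate 3 with wild type replicate 1 gave 0.069, and null replicate 1 with wild type replicate 3 gave 0.086. The remaining differently numbered pools gave -0.26 to -0.15. The pairing of replicates 1 and 3 is therefore weakly supported. Replicates 2 and 3 share a title number, which does not tell them apart. This pairing comes from the data and the title numbers.

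Tested on simulated data of 22626 probe sets with 200 changed in each of 20 simulations, the procedure called 0.153% of changes of 1.5-fold, 21.0% of 2-fold and 80.2% of 4-fold above the median level. Below it, where Egr2, Mag and other dim probe sets lie, it called 0.296% of changes of 1.5-fold, 2.94% of 2-fold and 18.1% of 4-fold. Readings were drawn for each probe set independently, from a normal distribution with its own mean and within-genotype SD. Variation that many probe sets of a pool share was not simulated, so the shares called may differ on the real arrays.

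The 8 genes, the lists and the tests were chosen with earlier results of these data known. Named were all probe sets of the 8 genes and Igf1, the 4 genes of smallest p in each of the 5 other lists, the brightest and dimmest of each marker list, and the 5 nearest patterns. Mog, Ngfr and S100b, the grouping of Mbp probe sets by sign and the 3 promoter motifs were chosen after the values or sequences were seen.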

Additional observations from a re-analysis of the deposited data

How the results depend on the processing

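Of 17 alternatives, 11 can move a difference of a probe set, and of 231 differences recomputed under these, 30 changed sign. Another 5 change only the test and leave the differences as they are. No difference of the 21 probe sets passed the threshold under any of them (smallest adjusted p = 0.790 in limma, for Mag without the arrays of title number 14). The counts past the threshold were 0 for the 21 probe sets, the 58 other genes and all probe sets under each alternative. An unadjusted p under 0.05 in limma was reached by 1130 of 22626 probe sets, and by 673 of the 13575 above the 40th percentile of level. The second count is smaller because fewer probe sets were tested. On the values as deposited the median over all genes moved to -0.14 and that of the 8 genes to -0.29, and 17 of 21 probe sets were lower, against 13. Leaving out 1 array at a time gave medians of the 8 genes from -0.22 to -0.036. With the replicate number as a block the brightest Mbp probe set differed by -0.68 (adjusted p = 0.842), and the block changed no call.

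Sign changes were as follows, and the cause was not tested. With the values as deposited, Mbp at 1425264_s_at and 1425263_a_at differed by -0.073 and -0.14, Mag by -0.32 and Egr2 at 1427682_a_at by -0.32. With median centring Mag differed by -0.14, Egr2 at 1427682_a_at by -0.15 and Sox10 at 1451689_a_at by 0.038. With a pseudocount of 32 Mag differed by -0.0093 and Egr2 at 1427682_a_at by -0.056. Without both arrays of title number 14, Egr2 at 1427682_a_at differed by -0.58 and Erbb3 at 1452482_at by -0.49. Without replicate 2 of both genotypes, chosen after the data were seen, Mbp at 1425263_a_at differed by -0.036, Mag by -0.43 and Sox10 at 1451689_a_at and 1424985_a_at by 0.20 and 0.033. With single arrays left out, the ranges were -0.11 to 0.25 and -0.035 to 0.14 for these Mbp probe sets, -0.29 to 0.51 for Mag, -0.78 to 0.56 for Egr2 at 1427682_a_at, -0.18 to 0.14 for Sox10 at 1451689_a_at, -0.034 to 0.52 at 1425369_a_at, -0.32 to 1.62 for Erbb3 at 1452482_at and -0.35 to 0.083 for Fabp7. The mean over probe sets gives no value per probe set.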
